A study of Mus musculus with 11 samples.

Results

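The genes described here encode proteins that write, erase or read out chemical marks on chromatin or move nucleosomes: DNA methyltransferases, TET dioxygenases, lysine demethylases, histone deacetylases, sirtuins, SET-domain methyltransferases, subunits of SWI/SNF and related remodellers, and ARID proteins. The rule that chose them went by symbol and was set with earlier results of these data known. It took the protein-coding genes of the count table whose symbols carry the stem of one of these families. The stems were Dnmt1 or Dnmt3, Tet1 to Tet3, Kdm1 to Kdm8, Hdac, Sirt1 to Sirt7, Setd, Smarca to Smarce, and Arid1 to Arid5. Smarca2 and Kdm5d were left out. That rule took 74 of the 27687 genes in the table, under 73 symbols, because Hdac4 was listed as 2 adjacent gene models. Kdm4d and Arid3c had too few counts to be tested (53 and 10 counts over all libraries), so 72 members were tested among 16241 genes.

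RNA was sequenced from 11 gliomas of high grade grown in mice. Prolonged knockdown of Ezh2 is the label of 9 of them, and the other 2 are labelled controls. The cells injected into the brain were glioma-initiating cells, that is, neural stem cells of the subventricular zone of mice 7 days of age that carried conditional p53, Ink4a/Arf and Krasv12 alleles with LucR, recombined in culture by repeated infection with a lentivirus carrying Cre under the CMV promoter, which is active in many cell types. Per the labels the cells of both groups, controls included, carried the doxycycline-responsive hairpin FH1-tUTG-shEzh2. They were sorted for GFP, and the hosts were NOD-SCID mice, which lack T and B lymphocytes but keep myeloid cells. Doxycycline was given in the drinking water at 2 mg/ml with 1% sucrose per the treatment label of every tumour, while the series' design text says that mice were treated with or without it, so effects of the drug itself and of Ezh2 knockdown cannot be told apart. Whether the tumours came from separate cell preparations is not said. The p-values therefore measure the spread among these samples alone.

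As background, DNA methyltransferases place methyl groups on cytosines in CpG dinucleotides, and TET enzymes oxidise those groups as a step towards their removal. Histone acetyl groups are removed by the zinc-dependent histone deacetylases and the NAD-dependent sirtuins, histone lysine methyl groups are removed by the KDM enzymes and placed by SET-domain enzymes, and SWI/SNF complexes use ATP to slide or evict nucleosomes. Ezh2, the gene targeted here, is the methyltransferase of Polycomb repressive complex 2 and places the methyl mark on lysine 27 of histone H3 that Kdm6a and Kdm6b remove.

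Because CpG dinucleotides are what the DNA methyltransferases and TET enzymes act on, the 250 bases before the annotated start are shown for 4 members whose RNA differed between the groups, Smarca1 and Tet1, which were higher in knockdown, and Hdac5 and Sirt5, which were lower. They are RefSeq sequences on GRCm38.p6, written 5′ to 3′ on the strand of the gene, with each CpG in capitals. The starts are those of RefSeq and were not matched to the mm9 gene models whose reads were counted. A stretch shown may therefore lie inside its gene model. The Smarca1 stretch lies at chrX:47892614-47892863 (minus strand, 6 CpG), that of Tet1 at chr10:62887325-62887574 (minus strand, 15 CpG), that of Hdac5 at chr11:102230173-102230422 (minus strand, 12 CpG) and that of Sirt5 at chr13:43365285-43365534 (plus strand, 13 CpG).
Smarca1: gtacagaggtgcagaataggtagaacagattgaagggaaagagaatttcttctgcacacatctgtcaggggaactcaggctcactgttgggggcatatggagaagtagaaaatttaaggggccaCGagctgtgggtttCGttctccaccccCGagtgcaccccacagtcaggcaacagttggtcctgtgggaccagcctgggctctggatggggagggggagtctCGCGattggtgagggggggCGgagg
Tet1: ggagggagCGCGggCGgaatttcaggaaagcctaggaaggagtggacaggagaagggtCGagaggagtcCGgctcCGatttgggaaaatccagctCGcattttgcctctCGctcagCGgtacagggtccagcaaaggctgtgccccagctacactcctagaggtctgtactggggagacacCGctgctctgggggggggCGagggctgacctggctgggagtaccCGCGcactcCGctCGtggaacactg
Hdac5: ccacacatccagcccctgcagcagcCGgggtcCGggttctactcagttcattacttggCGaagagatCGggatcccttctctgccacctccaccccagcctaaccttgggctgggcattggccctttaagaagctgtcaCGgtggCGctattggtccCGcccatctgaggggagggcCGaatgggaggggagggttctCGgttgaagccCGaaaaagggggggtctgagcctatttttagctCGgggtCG
Sirt5: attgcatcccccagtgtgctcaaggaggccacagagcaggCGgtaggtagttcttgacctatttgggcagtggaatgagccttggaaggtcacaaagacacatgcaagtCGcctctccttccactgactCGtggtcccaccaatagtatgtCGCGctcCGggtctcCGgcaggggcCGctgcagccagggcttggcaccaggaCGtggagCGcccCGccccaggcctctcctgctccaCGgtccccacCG
Over the full window of 300 bases, which adds 50 bases after the start, Smarca1 had 9 CpG and the other members shown had 17 (Tet1), 18 (Hdac5) and 15 (Sirt5). RefSeq held such a window for 60 of the 73 member symbols, in all 84 windows with a median of 22 CpG, against a median of 7 over all 32851 windows. The share of all windows with at least as many CpG was 45.8% for Smarca1, 31.4% for Tet1, 29.7% for Hdac5 and 34.6% for Sirt5. On either strand, the letters ACGTG, the core of the hypoxia response element, occurred in 13 of the 84 member windows (15.5%) and in 19.6% of all windows, and they occurred in those of Hdac5, after the start and outside the stretch shown, and of Sirt5, within it. The E2F-like letters TTTNNCGC occurred in 5 member windows (5.95%) and in 5.17% of all windows, and in none of the 4 shown. DNA methylation was not measured in these tumours, so the sequences describe the genes and not their state.

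The libraries held between 11209233 and 18638382 counts. Ezh2 itself had a lowest, median and highest value of 7.27, 14.6 and 30.4 CPM (read counts scaled to library size, with TMM factors) in the knockdown tumours against 45.3 and 52.7 in the controls, so the groups did not overlap (edgeR log2 fold change -1.59 ± 0.44 SE, adjusted p = 0.0225). Markers of other cells and of cell state were also read, and their part in the results below was not tested. At an adjusted p under 0.05 in edgeR, 23.3% of all tested genes were called. That share was 18.75% for the G2 and mitosis genes, 22.2% for the neuronal and 0% for the astrocyte markers. It was 25.0% for the fibroblast and pericyte markers and 37.5% or more for the other lists of this paragraph. Of 15 tested macrophage and microglia markers 11 fell and none rose, with a summed level of 490.3 to 1122 CPM in the knockdown tumours against 1272 and 3275 in the controls, and of 9 neutrophil markers 8 fell and 1 rose (39.4 to 548 CPM against 233 and 72.2). Of 8 oligodendrocyte markers 3 rose and 1 fell (281 to 437 CPM against 148 and 149), of 18 S-phase genes 7 rose (909 to 1996 CPM against 719 and 978) and of 16 genes of G2 and mitosis 3 rose (922 to 2529 CPM against 740.4 and 1065). Among 8 neural stem and glioma markers 2 rose and 4 fell (2664 to 4240 CPM against 7942 and 6827). For 8 endothelial markers the counts were 2 up and 1 down (140.3 to 329 CPM against 417 and 237), for 9 neuronal markers 2 up and 0 down (61.4 to 459 CPM against 219 and 158), for 8 astrocyte markers 0 in either direction in edgeR (1 in DESeq2, 1 in limma-voom and 1 at an unadjusted p under 0.05; 579 to 1514 CPM against 924 and 937), and for 8 fibroblast and pericyte markers 1 up and 1 down (1247 to 5408 CPM against 4458 and 4731). No matched marker was at 0 in every library. Xist, the RNA of the inactive X chromosome, was at 0.108 to 0.531 CPM in knockdown tumours 7, 8 and 9, at 1.10 CPM in tumour 1, and at 41.4 CPM or more in the other 7 libraries. In bulk tissue, fewer cells of a type and less RNA per cell cannot be told apart.

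Few members differed between the groups. At an adjusted p under 0.05, 7 members rose in the knockdown tumours (Smarca1, Dnmt3l, Tet1, Hdac10, Hdac8, Hdac1 and Smarcd2), 2 fell (Hdac5 and Sirt5) and 63 did not pass. That is 12.5% of the 72 tested members, while 23.3% of all 16241 tested genes were called (10.3% higher and 13.0% lower). In 14 members every knockdown tumour lay outside both controls, 9 above and 5 below, or 19.4%, against 27.2% of all genes. The median log2 fold change of the members was -0.00, with 36 above 0 and 36 below, and the median size of the change was 0.24, against 0.43 over all genes. The members were also abundant, with a median average level of 6.05 on the log2 CPM scale against 4.53 for all genes, and their median coefficient of variation over the knockdown tumours was 16.3% against 23.0%. Kdm5a varied least among them (4.79%) and Hdac9 most (75.1%).

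**Figure D1:**
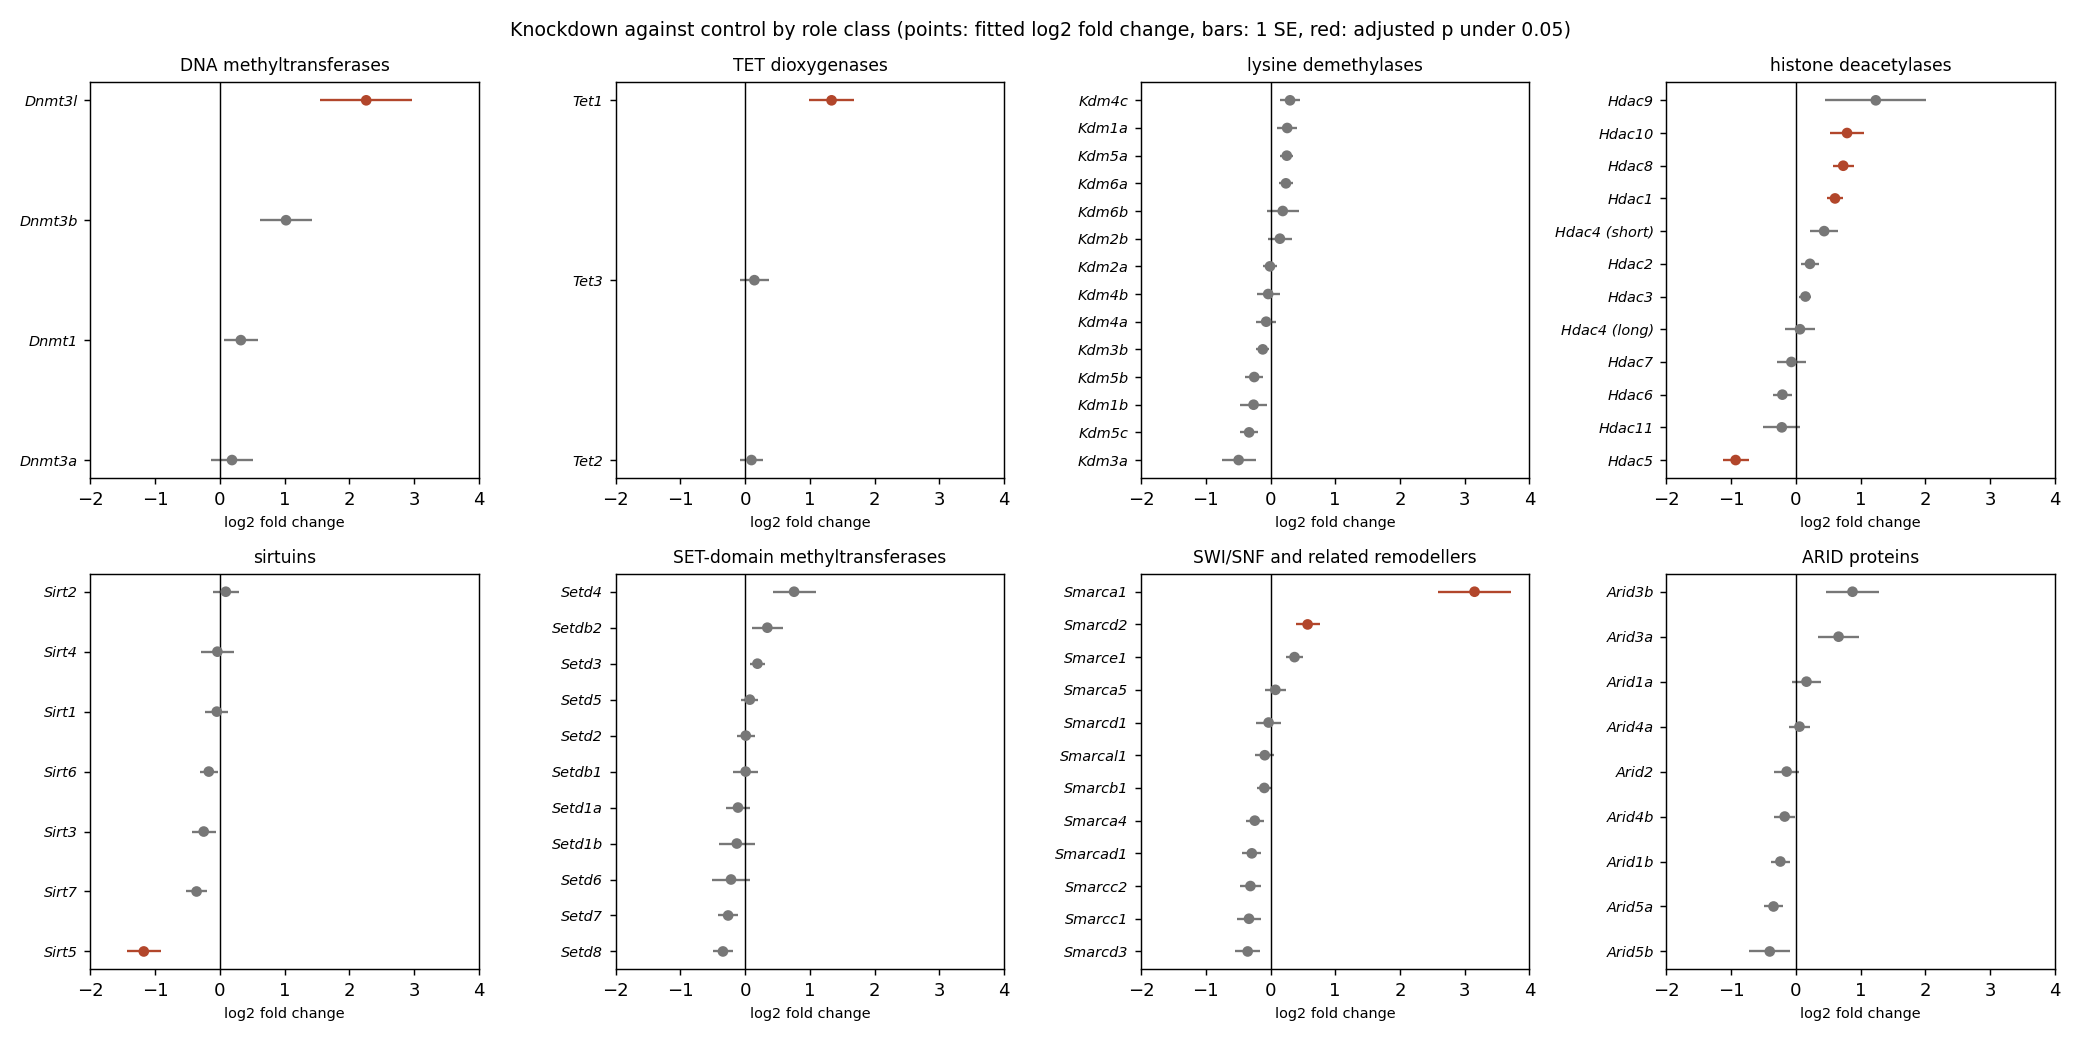
Fitted log2 fold change (knockdown against control, x axis) with its SE for every tested member, arranged by family, with the members that passed an adjusted p of 0.05 marked. Most members lie within 1 log2 unit of 0, and Smarca1, at 3.15, lies farthest from it.

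Of the 4 DNA methyltransferase genes, 1 rose and 3 did not pass, a called share of 25.0% against 23.3% of all genes. Dnmt3a, a de novo methyltransferase (ENSMUSG00000020661, mm9 chr12:3806007-3914443), was at 178, 170.1, 119.7, 203, 139.7, 172, 125, 109 and 291 CPM in knockdown tumours 1 to 9 and at 117 and 177 CPM in the controls. Tumour 9 stood highest and tumour 8 lowest, and the groups overlapped. The means were 168 ± 55.9 CPM (SD, n = 9) and 147 ± 42.7 CPM (SD, n = 2), and the log2 fold change of 0.19 ± 0.32 (SE) did not pass (edgeR, adjusted p = 0.704). Dnmt3l, a catalytically inactive partner of the de novo enzymes (ENSMUSG00000000730, mm9 chr10:77504692-77526367), rose from 0.769 and 0.501 CPM in the controls to 0.759 to 5.60 CPM with a median of 3.11 (log2 fold change 2.26 ± 0.71, edgeR adjusted p = 0.0394). Knockdown tumour 3 lay among the controls, the controls together held 18 counts, and the gene model overlaps that of Aire, so reads of the pair may not be separable. Dnmt3b, the other de novo enzyme, ran from 4.25 to 12.1 CPM (median 8.09) in the knockdown tumours against 3.39 and 4.38, with only tumour 9 among the controls, but missed the threshold in edgeR (log2 fold change 1.02 ± 0.41, adjusted p = 0.0890) and passed in DESeq2 (adjusted p = 0.0448). Dnmt1, which copies methylation after replication, was at 113 to 251 CPM against 125 and 146 (log2 fold change 0.32 ± 0.26, adjusted p = 0.392). Per kilobase of exon, the order of the mean levels was Dnmt1, Dnmt3a, Dnmt3b and Dnmt3l in both groups, at 18.3, 8.85, 0.761 and 0.213 CPM per kb in the controls and 22.9, 10.1, 1.55 and 1.02 in the knockdown tumours.

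Of the 3 TET genes, Tet1 rose and Tet2 and Tet3 did not pass, a called share of 33.3% against 23.3% of all genes. Tet1 (ENSMUSG00000047146, mm9 chr10:62267318-62361866) was at 19.04, 11.8, 19.7, 16.9, 11.1, 12.4, 9.16, 8.94 and 13.2 CPM in knockdown tumours 1 to 9 and at 6.54 and 4.26 CPM in the controls. Every knockdown tumour was above both controls, with tumours 1 and 3 highest and tumours 7 and 8 lowest. The means were 13.6 ± 4.04 CPM (SD, n = 9) and 5.40 ± 1.61 CPM (SD, n = 2), a 2.52-fold difference (log2 fold change 1.33 ± 0.35, edgeR adjusted p = 0.0189). Tet2 and Tet3 had log2 fold changes of 0.10 ± 0.18 and 0.14 ± 0.22 (adjusted p = 0.734 and 0.667). Tet1 was the scarcest of the family in both groups, at 0.349 CPM per kb of exon in the controls and 0.880 in the knockdown tumours, where Tet3 stood at 6.86 and 7.57 and Tet2 at 5.03 and 5.38.

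**Figure D2:**
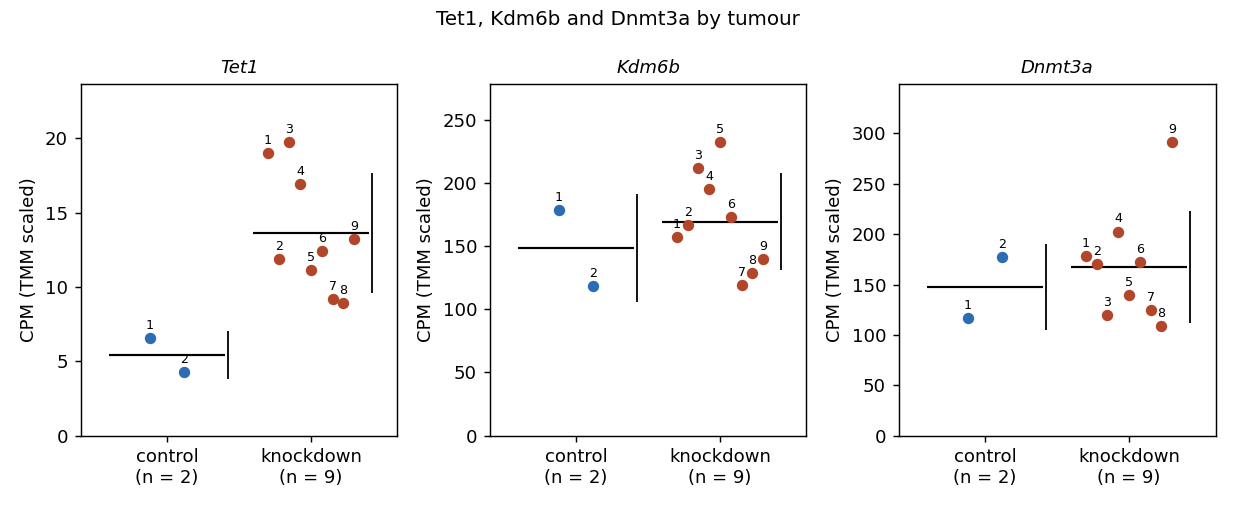
Level of Tet1, Kdm6b and Dnmt3a in each tumour (CPM, y axis), with knockdown and control tumours side by side and the mean and SD of each group. The Tet1 values of the knockdown tumours (8.94 to 19.7 CPM) lie above both controls, while those of Kdm6b and Dnmt3a overlap the controls.

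None of the 14 tested genes with a Kdm symbol passed in edgeR, DESeq2 or limma-voom, and 3 had an unadjusted p under 0.05. Of all 16241 tested genes, 23.3% were called in edgeR and 6027 had an unadjusted p under 0.05. Demethylase-related genes under other symbols, such as Jmjd5, which rose, were read in a separate list below. Kdm6b, which removes methyl groups from lysine 27 of histone H3 (ENSMUSG00000018476, mm9 chr11:69212010-69227177), was at 157, 167, 212, 195, 232, 173, 119, 129 and 140.2 CPM in knockdown tumours 1 to 9 and at 179 and 118 CPM in the controls. All but 3 of the knockdown values, those of tumours 3, 4 and 5, lay between the controls. The log2 fold change was 0.19 ± 0.24 (adjusted p = 0.605), and the gene model overlaps that of 1700064E03Rik. Kdm6a, an X-linked demethylase of the same residue, was at 53.4 to 68.9 CPM (median 59.3) against 50.5 and 50.7, so the groups did not overlap, and its log2 fold change was 0.24 ± 0.11 (adjusted p = 0.133). Kdm5a, which removes methyl groups from lysine 4 of histone H3, had the smallest p of the family, with 117 to 134 CPM (median 124) against 115 and 94.9 (log2 fold change 0.25 ± 0.10, adjusted p = 0.0918). Its X-linked relative Kdm5c was on the other side, at 94.7 to 138.6 CPM (median 115) against 148.9 and 138.9 (log2 fold change -0.33 ± 0.14, adjusted p = 0.109). The other 10 members lay between -0.49 (Kdm3a) and 0.30 (Kdm4c) on the log2 scale.

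Of 12 histone deacetylase gene models tested, 3 rose, 1 fell and 8 did not pass, a called share of 33.3% against 23.3% of all genes. Hdac1, a catalytic subunit of the NuRD, Sin3 and CoREST complexes (ENSMUSG00000028800, mm9 chr4:129193348-129219957), had a lowest, median and highest knockdown value of 27.7, 30.2 and 33.7 CPM against 18.8 and 21.7 in the controls. The groups did not overlap, and the log2 fold change was 0.61 ± 0.12 or 1.52-fold (edgeR, adjusted p = 0.00529). Hdac8, an X-linked class I enzyme known for deacetylating cohesin (ENSMUSG00000067567, mm9 chrX:99479978-99700698, overlapping Gm14858), was at 13.3 to 17.9 CPM (median 15.3) against 9.77 and 8.64, again with no overlap (log2 fold change 0.73 ± 0.16, adjusted p = 0.00869).

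Hdac10, a class IIb enzyme known as a polyamine deacetylase (ENSMUSG00000062906, mm9 chr15:88953737-88959130), was at 40.1, 36.0, 38.2, 43.2, 35.5, 34.6, 23.1, 21.98 and 25.7 CPM in knockdown tumours 1 to 9 and at 18.9 and 19.4 CPM in the controls. All 9 were above the controls, and tumours 7, 8 and 9, the ones with the least Xist, were nearest to them (log2 fold change 0.79 ± 0.26, adjusted p = 0.0445). Hdac5, a class IIa enzyme that shuttles between nucleus and cytoplasm (ENSMUSG00000008855, mm9 chr11:102055746-102091480), fell, with 81.0 to 131 CPM (median 99.4) against 247 and 139. Its groups did not overlap but the controls differed widely from each other, and the log2 fold change was -0.93 ± 0.20 (adjusted p = 0.00732). X-linked Hdac6, the tubulin deacetylase, was at 72.6 to 96.2 CPM (median 84.9) against 114 and 79.1 (log2 fold change -0.21 ± 0.14, adjusted p = 0.319). Hdac9 spread most, from 16.1 CPM in tumour 6 to 106 in tumour 3 and 138 in tumour 9 against 33.7 and 14.0, and did not pass (log2 fold change 1.24 ± 0.78, adjusted p = 0.272). Hdac2, a close paralog of Hdac1, had the highest mean level per length of the deacetylases in both groups (37.7 CPM per kb in the controls and 43.8 in the knockdown tumours) and did not pass (log2 fold change 0.22 ± 0.14, adjusted p = 0.261).

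Among the 7 sirtuins 1 fell and 6 did not pass. A log2 fold change below 0 was seen in 6 of the 7 and in 36 of all 72 tested members, and the median over all tested genes was 0.07. The called share was 14.3%, against 23.3% of all genes. Sirt5, a mitochondrial enzyme that removes succinyl, malonyl and glutaryl groups from lysines (ENSMUSG00000054021, mm9 chr13:43460882-43490571), fell from 6.92 and 6.83 CPM in the controls to 1.85 to 4.05 CPM (median 3.07). Every knockdown tumour was below both controls, and the log2 fold change was -1.18 ± 0.26 or 2.26-fold lower (edgeR, adjusted p = 0.00836). Sirt7, a nucleolar sirtuin, also had groups that did not overlap, at 26.3 to 41.5 CPM (median 37.5) against 43.8 and 48.5, but did not pass (log2 fold change -0.36 ± 0.16, adjusted p = 0.122).

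**Figure D3:**
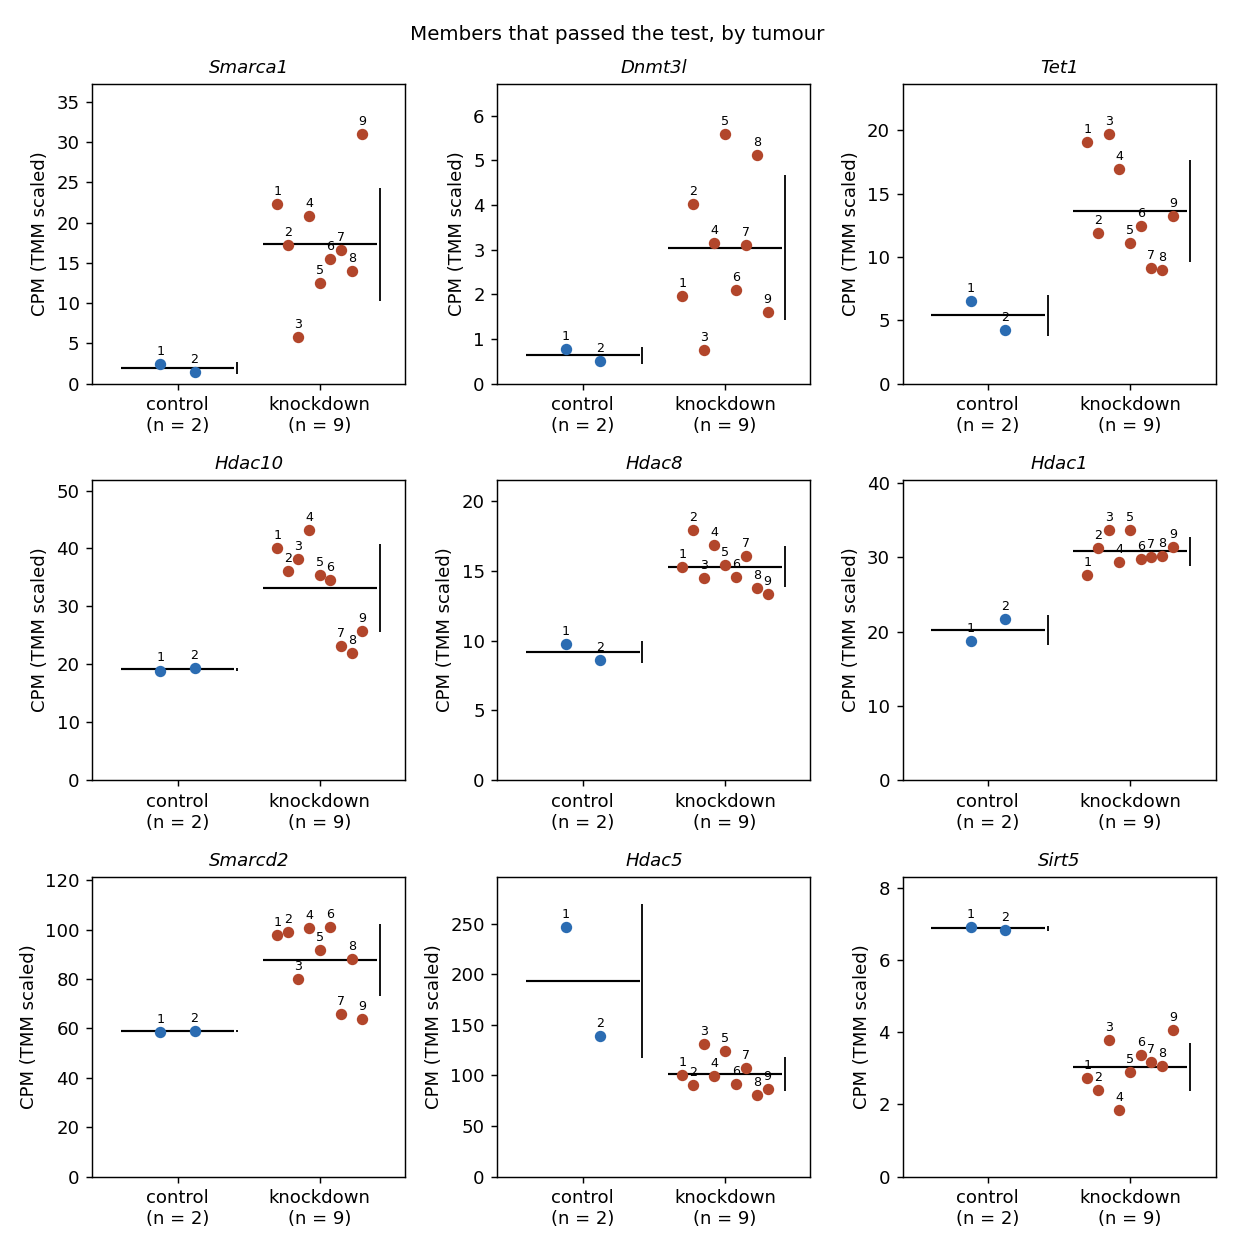
CPM of each of the 9 members that passed the test, in every tumour, with the group means and SDs. Knockdown and control tumours are separate for every gene but Dnmt3l, where knockdown tumour 3 (0.759 CPM) lies below control 1 (0.769 CPM).

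Smarca1 had the largest change of all members. This X-linked gene (ENSMUSG00000031099, mm9 chrX:45162545-45246151) encodes the SNF2L ATPase of ISWI remodelling complexes, which space nucleosomes. It was at 22.3, 17.3, 5.79, 20.8, 12.5, 15.5, 16.6, 14.0 and 31.1 CPM in knockdown tumours 1 to 9 and at 2.46 and 1.44 CPM in the controls. The lowest knockdown value, that of tumour 3, was above both controls, and the log2 fold change was 3.15 ± 0.57 or 8.89-fold (edgeR, adjusted p = 0.00288). Per kilobase of exon it went from 0.319 to 2.83 CPM per kb, while Smarca4, the Brg1 ATPase of SWI/SNF complexes, stood at 42.5 and 35.9.

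Among the other 11 genes with a Smarc symbol, Smarcd2 alone passed. Of all 12 Smarc genes 16.7% were called, against 23.3% of all tested genes. Smarcd2, a SWI/SNF accessory subunit (ENSMUSG00000078619, mm9 chr11:106124493-106134286), was at 63.7 to 101 CPM (median 91.6) against 58.5 and 59.1, with no overlap (log2 fold change 0.57 ± 0.19, adjusted p = 0.0439, or 0.0508 with RLE size factors in place of TMM). Smarce1, another subunit with no overlap (140 to 191 CPM against 128 and 136), did not pass in edgeR (log2 fold change 0.37 ± 0.13, adjusted p = 0.0586) and did in DESeq2 (adjusted p = 0.0387). The core subunits Smarcc1 and Smarcc2 and the ATPase gene Smarca4 had log2 fold changes of -0.33 ± 0.18, -0.31 ± 0.16 and -0.24 ± 0.14 (adjusted p = 0.207, 0.188 and 0.237).

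Neither the 11 SET-domain genes nor the 9 tested ARID genes held a call in edgeR, DESeq2 or limma-voom. Each family had 1 gene with an unadjusted p under 0.05. Over all 16241 tested genes, 23.3% were called in edgeR and 6027 had an unadjusted p under 0.05. Setd4 was at 5.56 to 15.0 CPM (median 11.996) against 7.00 and 6.08, with tumour 7 below both controls (log2 fold change 0.75 ± 0.33, adjusted p = 0.120). The family ranged from -0.34 (Setd8, which methylates lysine 20 of histone H4) to this value. Arid5a, an RNA-binding ARID protein, was at 37.8 to 54.2 CPM (median 40.4) against 59.2 and 48.6, with tumour 7 between the controls (log2 fold change -0.34 ± 0.14, adjusted p = 0.0940). The ARID genes ranged from -0.40 (Arid5b) to 0.88 (Arid3b), and both Arid3a and Arid3b were lowest in tumour 9, at 11.3 and 4.38 CPM against medians of 26.0 and 12.8 CPM.

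The calls rested on a small number of controls. With control 1 left out, 1 of the 9 calls was kept, and with control 2 left out, 3 were kept; Smarca1 was kept in both cases (log2 fold change 3.58 and 2.81, adjusted p = 0.024 and 0.042). Without control 2, Hdac1 and Hdac5 were kept too (adjusted p = 0.0223 and 0.0041). Without control 1 the log2 fold change of Hdac5 was -0.46 (adjusted p = 0.253), and that of Tet1 was 1.67 without control 1 and 1.05 without control 2 (adjusted p = 0.0658 and 0.173). Without knockdown tumours 7 and 9 all 9 calls were kept and 10 members were added, of which Dnmt3b (log2 fold change 1.16, adjusted p = 0.0178) and Setd4 (0.90, adjusted p = 0.0052) rose and Kdm5c (-0.38, adjusted p = 0.0378) fell.

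The background moved with the setting as well. Without control 1, 1 member rose and 0 fell, where 2.28% and 5.33% of all genes did, and without control 2 the members counted 2 and 1 (3.30% and 7.05% of all genes). Without knockdown tumours 7 and 9, 13 members rose and 6 fell (14.0% and 17.4% of all genes). Over the libraries with Xist at 1 CPM or more the counts were 13 and 5 (15.7% and 18.2%), and with Xist at 10 CPM or more they were 11 and 3 (13.5% and 15.8%). DESeq2 counted 9 and 2 (14.0% and 15.9%), limma-voom 4 and 2 (7.56% and 13.2%), RLE size factors 6 and 2 (9.53% and 14.0%), and edgeR without a low-count filter 4 and 2 (4.99% and 7.56%). Against a change of 1.5-fold 1 member rose and 0 fell (2.77% and 4.37%), and with the replicate number as a block 1 rose and 0 fell (2.23% and 1.99%). The member that rose in each of these last 2 settings was Smarca1.

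Ratios of related members within each tumour were compared to see whether one paralog moved against another. Over 12 pairs, the log2 ratio of CPM + 1 was tested by an exact two-sided permutation test over the libraries, for which the smallest p with 9 against 2 is 0.0182. After adjustment over the 12 pairs no pair could pass on its own: with every pair concerned at that smallest p, at least 5 would be needed, so the design gives no verdict on a single pair. No pair passed, and 3 had an unadjusted p under 0.05. The Tet1 to Tet3 ratio was higher in every knockdown tumour, at -3.58 to -2.81 against -3.92 and -4.48 (difference of means 1.06, exact p = 0.0182, adjusted p = 0.109). The ratio of Kdm5b to Kdm5a was lower in every knockdown tumour, at 0.12 to 0.46 against 0.86 and 0.67 (difference -0.49, exact p = 0.0182, adjusted p = 0.109). Hdac1 to Hdac2 differed by 0.37 (exact permutation p = 0.0364, adjusted p = 0.146).

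Across the knockdown tumours the members did not spread evenly. Of the 72 members, 26 (36.1%) were highest in tumour 3 and 22 (30.6%) in tumour 9, against 19.4% and 16.5% of all tested genes. No member was highest in tumour 8, against 12.2% of all tested genes. The lowest value fell in tumour 7 for 20 members (27.8%) and in tumour 8 for 19 (26.4%), against 18.5% and 12.1% of all genes. Tumour 9 was lowest for 11 members (15.3%), against 18.1% of all genes. Tumours 3 and 9 also had the most Ezh2 RNA among the knockdown tumours (30.4 and 30.1 CPM), and tumours 8 and 7 the least (7.27 and 8.31 CPM). Members of one library share its depth and cell mixture, and the part of these, or of Ezh2, in the pattern was not tested.

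**Figure D4:**
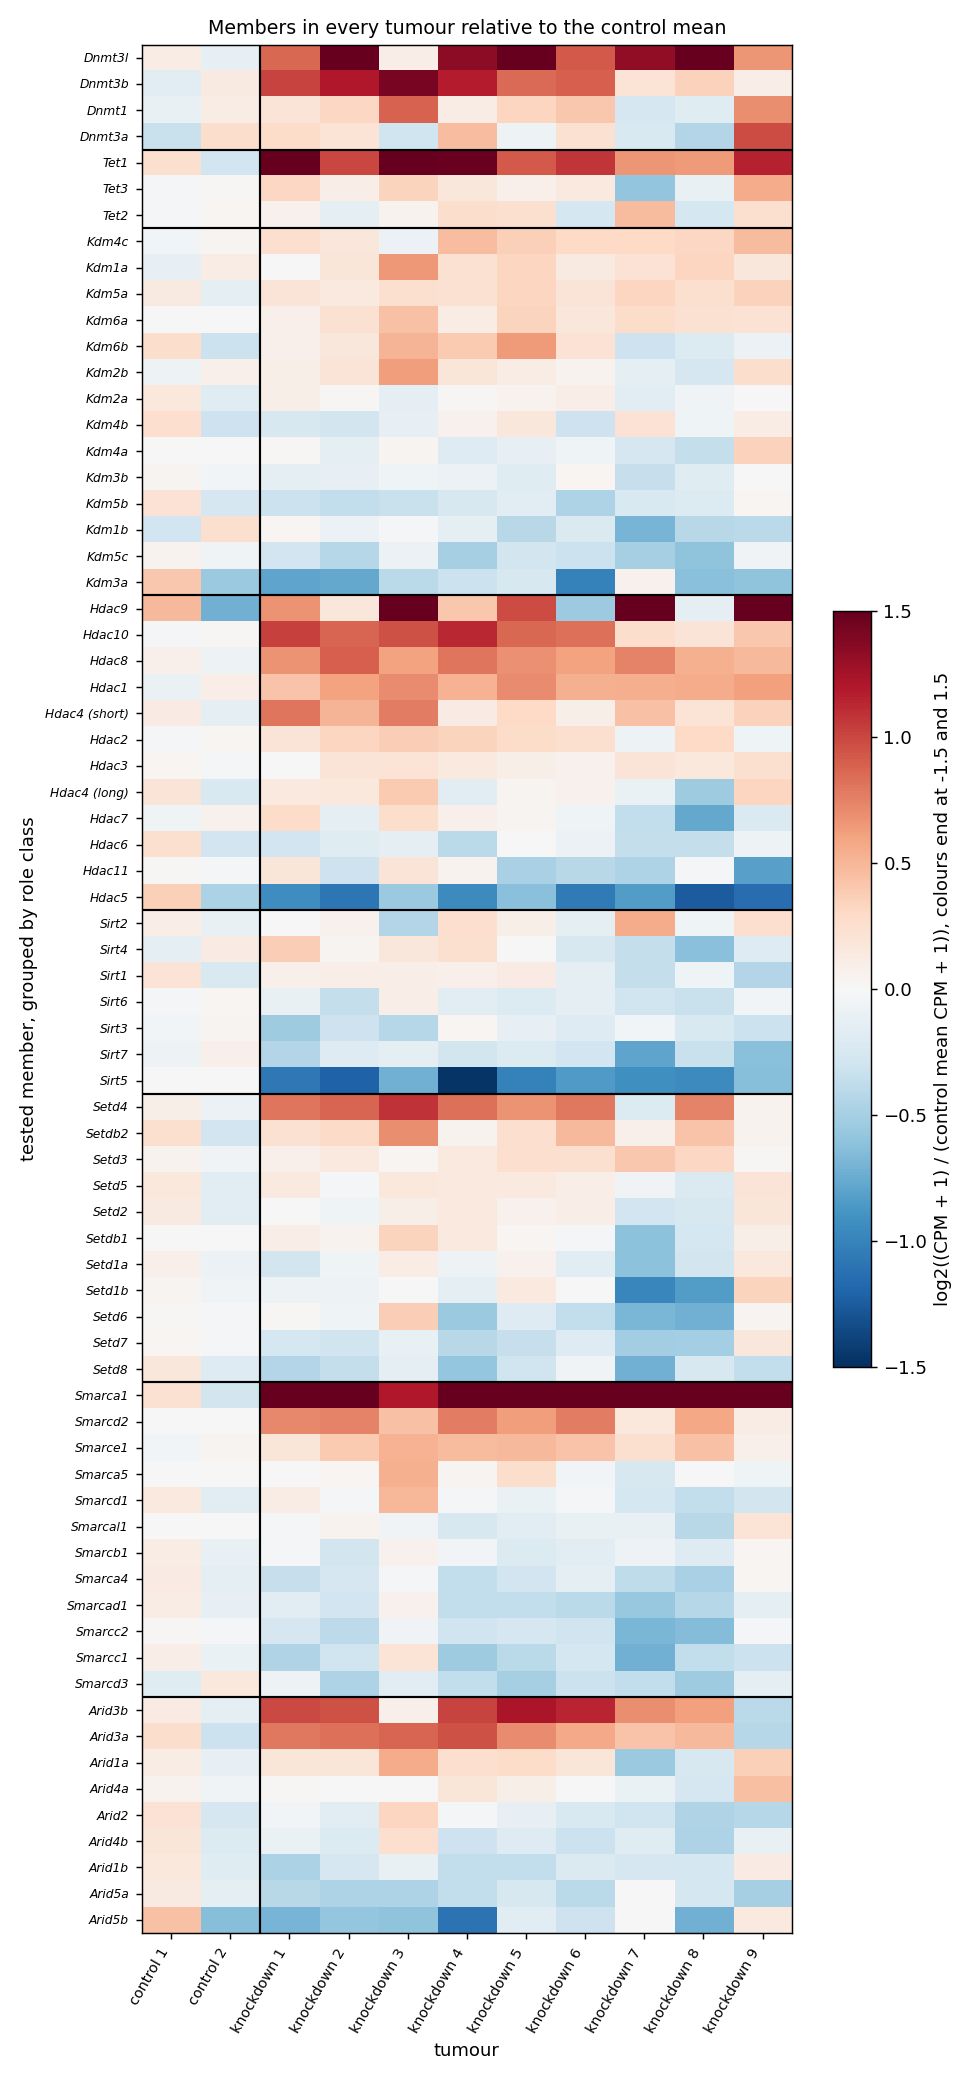
Each tested member in each tumour as the log2 of CPM + 1 over the control mean of CPM + 1 (colour, ending at -1.5 and 1.5), with members in rows by family and tumours in columns. Smarca1 is above the control mean in all 9 knockdown tumours and Hdac5 and Sirt5 are below it, while most other members stay pale.

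Genes that work with the members were read from the same fit, in 8 lists chosen for their role, with earlier results of these data known. Of 141 tested genes in these lists 14 rose and 12 fell, or 18.4% called against 23.3% of all genes, with a median log2 fold change of 0.02. Without control 1 these counts were 2 and 4, and without control 2 they were 2 and 8. Among 15 partners of DNA methylation 1 rose and 3 fell: Mbd4, a glycosylase that repairs mismatches at methylated CpG, rose from 10.8 ± 0.629 CPM (SD, n = 2) to 21.7 ± 4.57 (SD, n = 9; log2 fold change 1.00 ± 0.25, edgeR adjusted p = 0.0149), and Gadd45g, a stress-induced gene linked to demethylation, fell from 68.0 ± 39.8 CPM to 13.7 ± 4.86 (-2.31 ± 0.33, adjusted p = 0.000841). Zbtb33, a reader of methylated DNA, and Gadd45b fell too (-0.58 ± 0.16 and -1.57 ± 0.45). Among 33 other histone methyltransferase genes and their partners 3 rose and 2 fell, Ezh2 being 1 of the latter. Prmt2, an arginine methyltransferase, fell from 84.7 ± 15.2 CPM to 39.7 ± 5.28 (-1.09 ± 0.15, adjusted p = 0.000589), and Smyd5, Ezh1 and Smyd3 rose (0.60 ± 0.13, 0.79 ± 0.15 and 0.76 ± 0.20).

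Among 15 histone acetyltransferase genes 2 rose and 2 fell, a called share of 26.7% against 23.3% of all genes. Hat1, which acetylates newly made histone H4, and Kat2b, the PCAF acetyltransferase, rose (log2 fold change 0.86 ± 0.21 and 0.63 ± 0.16), and the nuclear receptor coactivator gene Ncoa1 and Myst1 fell (-0.69 ± 0.19 and -0.38 ± 0.12). Among 11 jumonji and demethylase-related genes 3 rose and none fell in edgeR, a called share of 27.3%. Their log2 fold changes were 0.50 ± 0.14 for Hif1an, 0.76 ± 0.22 for Jmjd5 and 0.96 ± 0.28 for Jarid2, a Polycomb repressive complex 2 partner. Of 20 genes of deacetylase corepressor complexes 1 rose and 2 fell, a called share of 15.0%. Sap30, a Sin3 complex subunit, fell from 23.0 ± 1.48 CPM to 7.97 ± 2.19 (-1.53 ± 0.24, adjusted p = 0.00123), Rcor2 fell (-1.13 ± 0.29) and Mier1 rose (0.36 ± 0.11).

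Partners of the SWI/SNF subunits and other remodellers had called shares of 13.3% and 18.2%, against 23.3% of all genes. Of 15 partner subunits of the BAF complex, the mammalian SWI/SNF, 1 rose and 1 fell, Bcl7c by 0.82 ± 0.15 (adjusted p = 0.00280) and Bcl11b, a transcription factor found in neural BAF complexes, by -1.55 ± 0.47 on the log2 scale. Of 22 other nucleosome remodelling genes 2 rose and 2 fell. Chd3, a NuRD ATPase, fell from 276 ± 3.38 CPM to 174 ± 18.5 (-0.67 ± 0.12, adjusted p = 0.00310) and Chd7, a remodeller of neural and neural crest cells, fell from 126 ± 40.7 to 51.7 ± 17.8 CPM (-1.28 ± 0.33), while Cecr2, a bromodomain partner of the Smarca1 product, rose from 8.74 ± 0.834 to 20.4 ± 5.45 CPM (1.22 ± 0.30, adjusted p = 0.0146) and Baz2b rose by 0.53 ± 0.16. Of 10 acetyl-lysine readers 1 rose, Yeats4 (0.49 ± 0.16).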

How the data were processed

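Total RNA was made into Illumina TruSeq libraries, per the labels' protocols. The deposited table gives whole-number read counts per Ensembl gene for each tumour, and its own symbols and mm9 coordinates were used. Per the submitters' processing notes, TopHat 1.4.0, HTSeq and mm9 were used. For the counting settings, strand included, a value is not given in the sources used here, so reads of overlapping models cannot be told apart, and 29 of the 74 members overlap another model with counts. Near-identical paralogs may have lost or shared reads.

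The test was the quasi-likelihood test of edgeR 4.0.16 in R 4.3.3 (filterByExpr, TMM, glmQLFit, glmQLFTest, all 11 libraries, no covariates), with p adjusted by Benjamini-Hochberg over 16241 genes at 0.05. The SE is the log2 fold change divided by the square root of F. A count of 3 corresponded to 0.162 to 0.273 CPM. The common biological coefficient of variation was 33.9%. Exon lengths came from GENCODE M21 by gene identifier and bear only on values per kilobase. Replicates correlated at r = 0.926 to 0.984 (knockdown) and 0.964 (control), and none was a copy. DESeq2 1.42.0, limma-voom 3.58.1, other size factors, no filter, a test against a 1.5-fold change, a replicate block and subsets of libraries were alternatives. The scripts were tested on simulated data. The simulated counts had a smaller biological coefficient of variation than these libraries, so they do not show how often calls err here.

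The members and lists were chosen with earlier results of these data known. Named were Tet1, Kdm6b, Dnmt3a, every called member, the member with the smallest p of a family without a call, the X-linked Kdm5c, Kdm6a, Hdac6, Hdac8 and Smarca1, and up to 2 called genes a list in each direction, taken by p; other genes, such as Jarid2, Gadd45b and Smyd3, were named after their values were seen. Lists of neutrophil, macrophage and microglia, endothelial, neuronal, oligodendrocyte, astrocyte, fibroblast and pericyte, neural stem and glioma, S-phase, G2 and mitosis, and sex-linked genes were read as markers; of the 4 sex-linked genes 0 passed in edgeR, 3 in DESeq2 and 0 in limma-voom, and 3 had an unadjusted p under 0.05.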

Additional observations from a re-analysis of the deposited data

Results flagged for a closer look

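In 8 of the 72 tested members, 1 knockdown tumour stood apart from the other 8, in that its gap to the nearest value, divided by the range over the 9 tumours, exceeded Dixon's 95% critical value. The 1 in 20 groups that this value allows by chance holds for independent, normally distributed values, while these members share the same libraries. The share of all tested genes set apart by this rule was not computed, so the count is not a result about the members. Knockdown tumour 3 was the highest for 5 of them, Smarcc1 at 248 CPM (next 179), Arid2 at 200.4 CPM (next 158), Kdm1a at 187 CPM (next 149), Smarcd1 at 126 CPM (next 96.9) and Arid4b at 105 CPM (next 81.6). Tumour 9 was highest for Kdm4a at 132 CPM (next 107) and lowest for Arid3a at 11.3 CPM (next 21.1), and tumour 7 was highest for Arid5a at 54.2 CPM (next 45.3). None of these members passed the test between the groups in edgeR, and of the 8 only Arid5a had an unadjusted p under 0.05.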

How the results depend on the processing

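Of the 9 calls, DESeq2 kept 9, RLE size factors 8, limma-voom 6 and no low-count filter 6, and Smarca1 was called under every alternative run. Against 7 members that rose, 4 rose without a filter and 4 with limma-voom, 1 against a 1.5-fold change, 13 without knockdown tumours 7 and 9, 13 over the 8 libraries with Xist at 1 CPM or more, and 11 over the 7 with Xist at 10 CPM or more, a limit chosen after seeing the data; leaving out a control gave 1 to 2. Against 2 that fell, the counts were 0 for the 1.5-fold test, 6 without tumours 7 and 9, 5 with Xist at 1 CPM, and 0 to 1 with a control left out. For the other chromatin genes (14 rose, 12 fell), 0 rose and 3 fell in the 1.5-fold test, 27 and 22 rose with the lower and higher Xist limits, and 2 rose and 4 to 8 fell with a control left out. The cause was not tested. With a control left out, the lone control is assumed to vary like the knockdown tumours. With a control left out the log2 fold change ran from -0.085 to 0.51 for Dnmt3a, from -0.45 to 0.079 for Hdac6 and from -0.083 to 0.52 for Kdm6b, so their directions turned. The replicate block, in which only numbers 1 and 2 have both groups, left 1 member and 1 other chromatin gene higher and 0 members and 3 others lower. The deviations of same-numbered tumours from their group means correlated at r = -0.142 and 0.017. With 2 controls the deviations of one mirror those of the other, so this check cannot exclude a pairing. The alternatives for the 12 paralog ratios say little, since the smallest p was 0.1 with a control left out, where no pair could pass, and all 12 pairs would have to reach the smallest p with Xist at 10 CPM or more. The 2 controls limit all calls, and low counts limit Dnmt3l.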
